A study of Mus musculus with 32 samples.

Results

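The genes described here are mouse zinc finger protein genes, those whose symbol is Zfp followed by a number and at most 1 letter, that were found above a log2 normalized count of 0 in all 8 libraries of RNA pulled down with an antibody against N6-methyladenosine (m6A). The m6A table held 391 such Zfp genes among 27179 genes, and 218 of them met the rule. The members were chosen by these measured levels, so that every member is seen in every organ is how it was chosen and not a finding. Of the 173 Zfp genes that missed it, 41 were above 0 in no library and 34 in 7 of the 8. Over all genes of the table, 8293 were above 0 in all 8 libraries, and these serve below as the closest background.

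The study pulled down m6A-carrying RNA from brain, heart, kidney and liver of mice. Each organ was either fixed in 10% formalin and embedded in paraffin (FFPE) or flash frozen. RNA from both forms was sheared by ultrasound for 20 min and made into total RNA libraries after ribosomal RNA depletion, and only FFPE tissue was deparaffinized. Of 32 labelled samples, 16 carry the m6A antibody, 2 runs for each organ and preservation, and the table gives a single column per organ and preservation, which may hold 1 run or both. The 8 columns are FFPE and frozen brain, FFPE and frozen heart, FFPE and frozen kidney, FFPE and frozen liver. Each column was therefore taken as 1 library without a replicate. Whole organs were used, and strain, age, sex and the number of mice are not given in the labels. Input RNA was not analysed here, so levels describe pulled-down transcript, and abundance cannot be told apart from methylation. In whole organs, fewer cells of a type and less RNA per cell cannot be told apart either. Below, 2 values for an organ stand in the order FFPE, then frozen.

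Zfp genes encode proteins with arrays of C2H2 zinc fingers, small zinc-bound folds that each read a few bases of DNA or bind RNA or protein. Many of those in mouse also carry a KRAB domain, which recruits the corepressor Trim28 and, through it, the histone methyltransferase Setdb1, and these KRAB zinc finger proteins are best known for silencing retrotransposons and for keeping imprints. Many lie in tandem clusters of similar copies. In messenger RNA, m6A is known to gather in long internal exons and near stop codons. Other members have no KRAB domain and act in transcription activation, in RNA processing or at the ribosome.

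Total gene counts ran from 9603050 to 21523379 per library, of which 50.4 to 79.7% came from ribosomal transcripts. Outside these transcripts the libraries held 3050241 (FFPE liver) to 8004550 (frozen brain) counts. The defining markers of each organ were abundant in its own libraries: the 10 hepatocyte markers summed to 31000 and 33000 CPM (counts per scaled library size of the authors) in liver and to at most 365 elsewhere, the 10 cardiomyocyte markers to 45300 and 38900 in heart and at most 238 elsewhere, and the 10 nephron markers to 4110 and 4770 in kidney and at most 11.1 elsewhere. The 10 neuron markers summed to 1110 and 1440 CPM in brain. In frozen heart they summed to 58.9 CPM with all 10 over 3 counts, and in FFPE heart to 32.2 with 7 over 3 counts, against 4.52 to 5.21 in kidney and liver.

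The members were transcripts of modest level. Their median level was highest in brain, at log2 2.73 and 2.62. Kidney followed with 2.48 and 2.39, then heart with 2.29 and 2.25 and liver with 2.27 and 2.05. In each library this was below the median of the 8293 genes above 0 everywhere, which lay between 2.94 and 3.17. The median of all genes tested below was also highest in brain, at 2.28 and 2.37, and then in kidney, at 2.23 and 2.14. It was 2.03 and 1.99 in heart and 2.06 and 1.94 in liver. Behind the median member stood 142 and 210 counts in brain but only 30 and 41 in liver, so that liver values of members are the least precise. Together the members took 0.969 and 0.905% of the counts outside ribosomal transcripts in brain, 0.735 and 0.799% in kidney, 0.595 and 0.596% in heart and 0.363 and 0.353% in liver. The share was thus higher in both brain libraries than in any other library and lower in both liver libraries. Such a share is itself a scaling by counts outside ribosomal transcripts, in place of the authors' scaling. With it, the median of all genes tested below also differed from the other organs, by log2 0.56 in brain and -0.95 in liver. The members' medians were 0.83 and -1.02. No length was at hand for the transcripts, so members are not ranked by level against each other.

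**Figure D1:**
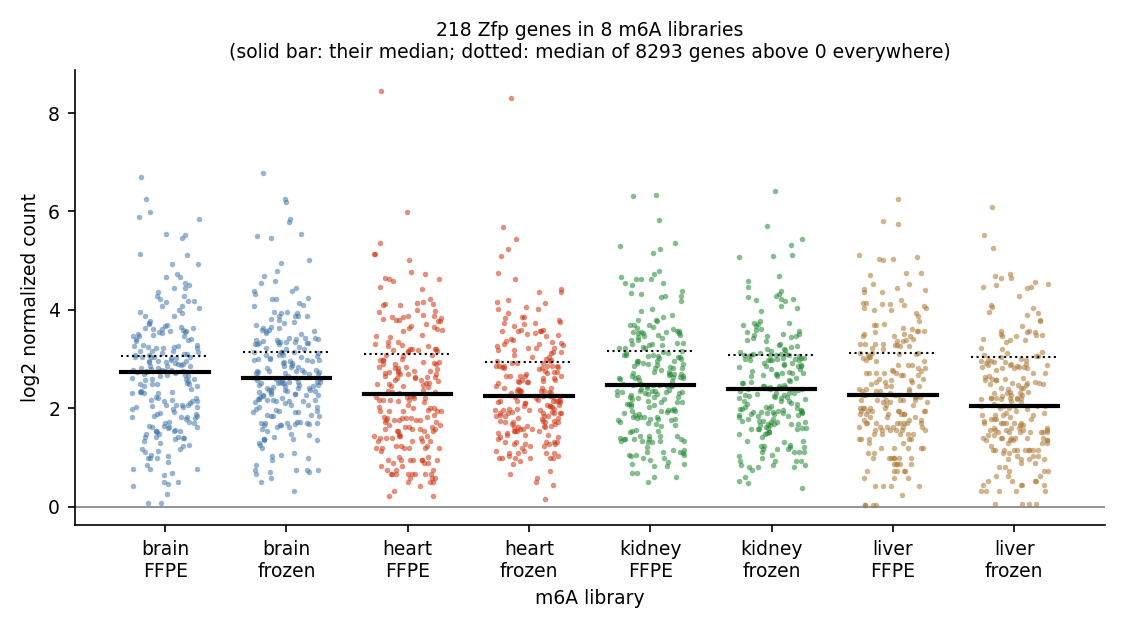
Level of each of the 218 Zfp members (points, log2 normalized count) in the 8 m6A libraries, FFPE left of frozen within an organ, with the members' median as a solid bar and the median of all 8293 genes above 0 in every library as a dotted bar. The members' median is highest in FFPE brain at 2.73 and lowest in frozen liver at 2.05, and lies below the dotted bar in all 8 libraries.

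The threshold sat where counts were small. The 3 members just inside, Zfp358, Zfp438 and Zfp938, each had 6 counts in FFPE liver, which gave log2 0.037. Just outside lay Zfp141 with 11 counts in FFPE heart (log2 -0.0167), Zfp420 with 12 counts in frozen heart (log2 -0.0535) and Zfp607a with 20 counts in FFPE brain (log2 -0.0677). Of the 34 genes that failed in 1 library alone, 9 failed in FFPE heart, 9 in frozen liver, 8 in FFPE liver, 4 in FFPE brain, 2 each in frozen heart and frozen kidney, and none in frozen brain or FFPE kidney. A log2 threshold of 1 would have kept 152 genes, and one of -1 would have kept 279.

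Members spanned a smaller range across the 8 libraries than the genes seen everywhere did. The difference between a member's highest and lowest library had a median of log2 1.35, against 1.72 for the 8293 genes, and it was over 3 for 7 members (3.21%), against 18.3% of the 8293. It was under 1 for 46 members, or 21.1%, against 15.6%. The most even member was Zfp869, between 3.27 in frozen heart and 3.63 in FFPE brain and FFPE heart, a range of 0.36. Zfp263 ranged by 0.38 (lowest 2.95 in frozen heart, highest 3.33 in FFPE kidney), Zfp790 by 0.49 and Zfp160 by 0.52. The lower limit of the rule keeps genes that are nearly off in 1 organ out of both sets, and low members cannot vary far downwards, so these ranges are a description.

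Brain was the organ in which a member was most often highest. In both preservations brain stood highest for 82 members (37.6%, against 25.2% of the 8293 genes), kidney for 22 (10.1 against 10.6%), liver for 19 (8.72 against 19.6%) and heart for 17 (7.8 against 14.3%). Liver stood lowest in both preservations for 51 members (23.4 against 18.4%) and brain for 20 (9.17 against 20.2%). Both brain libraries lay above all other 6 for 66 members, or 30.3%, where the background was 26.6% of the 14864 genes tested and 20.8% of the 8293. Both lay below the other 6 for 15 members (6.88%), where the background was 15.9% and 15.6%. For heart the counts were 12 above (5.5%; background 11.3% and 11.3%) and 26 below (11.9%; background 9.11% and 12.2%), and for kidney 12 above (5.5%; background 10.1% and 7.45%) and 7 below (3.21%; background 4.55% and 5.17%). For liver they were 12 above (5.5%; background 15% and 14.9%) and 39 below (17.9%; background 15.2% and 14%).

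To test each organ against the mean of the other 3, a limma fit with terms for organ and preservation was made over all 14864 genes that passed log2 0 in at least 2 libraries. A gene is called at a Benjamini-Hochberg adjusted p under 0.05. Such a p measures how alike the FFPE and frozen library of an organ behaved, not the spread between mice. Members passed the filter by their rule, and the rule used the same levels, so member counts are set beside the background and carry no test. In all, 112 members (51.4%) were called in at least 1 organ and 106 in none, where the background called in at least 1 organ was 75.6% of all genes tested and 68.9% of the 8293.

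In brain, 58 members were called higher (26.6%), where the background was 30.2% of all genes tested and 24.6% of the 8293. Only 17 were called lower (7.8%), where the background was 26.4% and 23.9%. Under the authors' scaling the share of members called higher was thus near the background, and the share called lower was well below it. The median member differed from the other organs by log2 0.34, with quartiles at -0.02 and 0.71, against a median of 0.07 over all genes tested and 0.03 over the 8293. The split of 58 higher and 17 lower moved to 43 and 27 with quantile normalization, 40 and 24 with median centring, 170 and 1 with scaling by total gene counts and 134 and 7 with scaling by counts outside ribosomal transcripts. All genes tested had 26.6, 25.5, 55.4 and 43.7% called higher under these scalings, in that order. They had 33.5% called lower with quantile normalization, 32.7% with median centring and 18.9% with counts outside ribosomal transcripts. With total counts 1558 of the 14864 were called lower. The members' share called higher lay below this background with quantile normalization and median centring, and above it with the others. Their share called lower lay below it under each. The members' median lay above that of all genes tested by 0.27 under the authors' scaling and by 0.25 with quantile normalization. The other scalings shift every gene of a library alike, so they cannot change this gap. Fewer members were called higher, and fewer lower, when either brain library was left out. The shares of all genes called in those fits are not given here. The summed neuron markers of heart given above moved with organ and preservation, and their part in the brain differences was not tested.

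**Figure D2:**
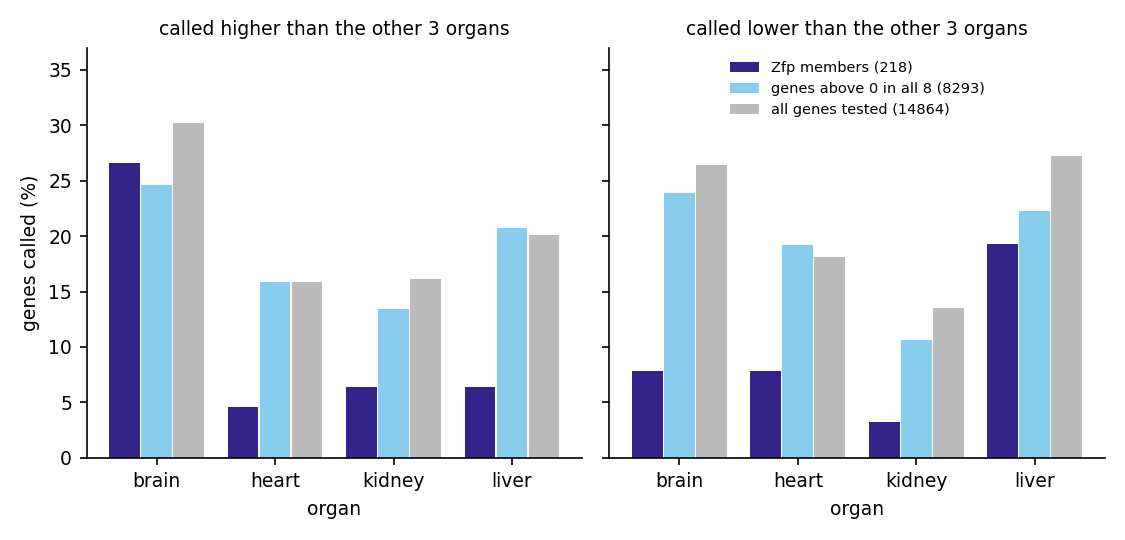
Percent of genes called higher (left) or lower (right) than the mean of the other 3 organs at limma adjusted p under 0.05, for the 218 members, the 8293 genes above 0 in all libraries and all 14864 genes tested. The members' bar lies between the other bars for brain higher, at 26.6%, somewhat below them for liver lower, at 19.3%, and at 7.8% or less elsewhere.

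Zfp334 had the largest called brain difference upward of the members. Its level was 3.41 and 3.42 in brain, against 1.83 and 1.71 (heart), 1.05 and 1.05 (kidney) and 0.42 and 0.53 (liver). Both brain libraries stood apart from all others, and the difference was log2 2.31 ± 0.28 (SE; limma adjusted p = 1.84e-04). The value of liver rests on 8 and 14 counts. Zfp462, whose human counterpart is mutated in a neurodevelopmental syndrome, had 5.11 and 4.95 in brain, against 4.09 and 3.53 (heart), 4.35 and 4.03 (kidney) and 0.73 and 1.35 (liver). Brain was higher by 2.02 ± 0.24 (adjusted p = 1.50e-04), but liver, with 10 and 25 counts, stood further from the rest than brain did. Its gene span on chromosome 4 overlaps the gene models Gm42289 and Gm8364. Zfp788 had 3.63 and 3.80 in brain, against 1.94 and 2.20 (heart), 2.23 and 2.01 (kidney) and 1.47 and 0.53 (liver), a difference of 1.99 ± 0.30 (adjusted p = 5.82e-04). Zfp763 had 2.96 and 3.25 in brain, against 1.39 and 1.28 (heart), 1.95 and 1.58 (kidney) and 1.09 and 1.16 (liver), a difference of 1.70 ± 0.28 (adjusted p = 0.00104). In both, brain did not overlap any other organ. These 4 calls held under each alternative that was run.

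RefSeq promoters (GRCm38.p6) were matched for 184 members, in 222 windows of 300 bases. Those of 3 members with the largest called brain differences upward are shown so that the start of each gene can be read beside its values, and only the bases outside every annotated gene span are printed. Zfp334 lies on the minus strand of chromosome 2 (165374264 to 165388315), and its upstream bases are chr2:165388316-165388509. Zfp788 lies on the plus strand of chromosome 7 (41633531 to 41650881), and its upstream bases are chr7:41633281-41633530. Zfp763 lies on the minus strand of chromosome 17 (33016864 to 33033381), and its upstream bases are chr17:33033382-33033631. No promoter was at hand for Zfp462. Each is written 5′ to 3′ along the gene's strand, with capitals for matches to any of 5 short motifs on either strand.
Zfp334: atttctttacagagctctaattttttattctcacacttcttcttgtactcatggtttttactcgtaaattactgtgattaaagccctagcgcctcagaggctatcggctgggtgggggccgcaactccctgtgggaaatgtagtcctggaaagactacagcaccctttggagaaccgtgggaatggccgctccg
Zfp788: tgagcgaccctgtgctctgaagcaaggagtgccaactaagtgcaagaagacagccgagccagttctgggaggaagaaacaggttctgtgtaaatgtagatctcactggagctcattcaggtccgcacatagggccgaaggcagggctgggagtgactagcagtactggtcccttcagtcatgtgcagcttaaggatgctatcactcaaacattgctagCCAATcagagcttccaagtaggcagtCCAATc
Zfp763: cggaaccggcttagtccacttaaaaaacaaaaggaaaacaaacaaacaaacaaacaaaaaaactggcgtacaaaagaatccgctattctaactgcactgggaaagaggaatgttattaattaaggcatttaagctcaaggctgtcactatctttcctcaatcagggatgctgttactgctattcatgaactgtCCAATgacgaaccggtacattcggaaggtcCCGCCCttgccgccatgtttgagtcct
The motifs searched were the GC box GGGCGG, the CCAAT box, the TATA box TATAAA, the ETS core CCGGAAG and the NRF1 core TGCGCA, none of which contains another. The shown bases of Zfp334 held no match, those of Zfp788 held 2 CCAAT boxes near the start, and those of Zfp763 held 1 CCAAT box and 1 GC box. Over the members' 222 full windows, 47.3% held a CCAAT box, 49.5% a GC box, 21.6% an ETS core, 11.3% an NRF1 core and 4.95% a TATA box. Windows of the genes above 0 in all libraries held them in 37.4, 65.9, 20.1, 15.1 and 6.35%, and all windows of the table in 37.4, 35.7, 8.86, 7.76 and 13.6%. The median number of CpG dinucleotides was 16.5 in members' windows, 22.0 in those of the genes above 0 in all libraries and 7.0 in all windows. Members called higher in brain, with 59 windows, had a median of 16.0 CpG, against 17.0 in the 163 windows of the other members, and a CCAAT box in 45.8% against 47.9%. A match is a description of letters and not of a bound factor.

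Of the members, 15 (6.88%) had both brain libraries below the other 6, where the background was 15.9% of all genes tested and 15.6% of the 8293. The members with the largest called brain differences downward were Zfp217, Zfp568, Zfp768 and Zfp970. Zfp217, a corepressor-associated protein that was reported in mouse embryonic stem cells to bind the m6A writer Mettl3, had 0.46 and 0.70 in brain, against 3.19 and 2.86 (heart), 3.47 and 3.48 (kidney) and 3.50 and 2.57 (liver). Both brain libraries lay far below the other 6, on 29 and 55 counts, and the difference was -2.60 ± 0.27 (limma adjusted p = 8.37e-05). Zfp568, a KRAB protein that represses a placental Igf2 transcript, had 1.92 and 1.20 in brain, against 4.22 and 3.40 (heart), 2.72 and 3.03 (kidney) and 4.08 and 3.07 (liver), a difference of -1.86 ± 0.28 (adjusted p = 5.50e-04). Zfp768 had 0.76 and 1.45 in brain, with all other libraries between 2.68 and 3.38, a difference of -1.85 ± 0.25 (adjusted p = 3.44e-04). Brain did not overlap any other organ for either. Zfp970 had 1.39 and 1.65 in brain, close to kidney at 1.97 and 2.01, against 3.87 and 3.49 in heart and 4.10 and 4.53 in liver, a difference of -1.81 ± 0.23 (adjusted p = 2.10e-04). With scaling by total gene counts, the calls for Zfp568, Zfp768 and Zfp970 were lost (adjusted p = 0.225, 0.256 and 0.274).

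In heart, 10 members were called higher (4.59%; background 15.9% of all genes tested and 15.9% of the 8293) and 17 lower (7.8%; background 18.1% and 19.2%). Both shares were well below the background. The members' median was -0.15, equal to that of all genes tested, against -0.11 for the 8293. This balance depended on the scaling: 22 were higher and 13 lower with quantile normalization and 20 and 12 with median centring. The members' median was 0.03 and 0.01 there. The counts were 2 and 23 with total counts and 6 and 29 with counts outside ribosomal transcripts. All genes tested had 20.7 and 17.3%, 19 and 14.5%, 7.45 and 23.6%, and 13.4 and 21.9% called higher and lower under these scalings. Fewer members were called higher when FFPE brain, FFPE heart, frozen heart or FFPE kidney was left out. Fewer were called lower when frozen brain, either heart library or either kidney library was left out. The shares of all genes called in those fits are not given here.

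Zfp106, an RNA-binding zinc finger protein needed for the upkeep of motor neurons and muscle, was the member with the most counts in heart. It had 8.45 and 8.31 in heart, against 6.70 and 6.78 (brain), 6.34 and 6.42 (kidney) and 5.80 and 6.09 (liver). The heart libraries did not overlap any others, the counts there were 4060 and 4104, and the difference was 2.02 ± 0.14 (limma adjusted p = 1.67e-05). Zfp366, known as DC-SCRIPT for its place in dendritic cells, had 3.47 and 2.74 in heart, against 0.76 and 0.31 (brain), 1.43 and 1.73 (kidney) and 0.86 and 1.16 (liver), a difference of 2.06 ± 0.34 (adjusted p = 0.00212; 0.0649 without FFPE heart). The 6 endothelial markers summed to 337 and 263 CPM in heart, against 36.7 and 23.4 in brain, 112 and 132 in kidney, and 62.5 and 67.5 in liver, with none of the 6 at 0. The 6 macrophage and leukocyte markers summed to 22.5 and 28.2 CPM in heart and between 16.2 and 28.3 elsewhere, with Itgam at 0 in FFPE liver. The part of either cell type in the Zfp366 difference was not tested. Zfp46 had 4.12 and 4.02 in heart, against 3.04 and 3.21 (brain), 2.82 and 2.45 (kidney) and 1.55 and 1.56 (liver), a difference of 1.63 ± 0.21 (adjusted p = 5.00e-04; 0.0697 with total counts). Zfp775 passed narrowly at 1.19 ± 0.38 (adjusted p = 0.0415) and was not called without any 1 of FFPE brain, FFPE heart, frozen heart, FFPE kidney or frozen kidney (adjusted p from 0.0832 to 0.33), nor with 4 other settings (0.0538 to 0.419).

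The promoter of Zfp106 is shown for the member with the firmest heart difference. The gene lies on the minus strand of chromosome 2 (120506820 to 120563864, GRCm38.p6), and its upstream bases outside the gene span are chr2:120563865-120564109, with capitals as above.
Zfp106: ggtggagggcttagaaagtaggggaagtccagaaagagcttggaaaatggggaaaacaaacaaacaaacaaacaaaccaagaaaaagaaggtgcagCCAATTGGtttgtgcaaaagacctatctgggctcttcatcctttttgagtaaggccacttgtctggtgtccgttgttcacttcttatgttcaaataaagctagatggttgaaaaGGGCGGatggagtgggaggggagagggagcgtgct
These bases held 1 GC box and 2 CCAAT boxes that share letters on opposite strands, and 3 CpG dinucleotides.

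Lower in heart were Zfp444, Zfp35, Zfp467 and Zfp398. Zfp444 had 0.82 and 1.45 in heart, against 2.89 and 2.29 (brain), 3.54 and 3.15 (kidney) and 2.06 and 2.21 (liver), a difference of -1.56 ± 0.30 (limma adjusted p = 0.00423; 0.0766 without FFPE heart). Zfp35 had 0.89 and 1.45 in heart, against 2.71 and 2.85 (brain), 3.28 and 3.36 (kidney) and 2.01 and 2.05 (liver), a difference of -1.54 ± 0.24 (adjusted p = 0.00152). In both genes heart was below and kidney above every other organ. Zfp467, which favours adipocyte over osteoblast fate in marrow stroma, had 1.94 and 1.75 in heart, against 3.05 and 2.88 (brain), 3.79 and 3.57 (kidney) and 3.37 and 3.49 (liver), a difference of -1.52 ± 0.19 (adjusted p = 5.00e-04). Zfp398, whose span overlaps Zfp786, differed by -1.12 ± 0.25 (adjusted p = 0.00879; 0.0959 without FFPE heart).

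In kidney, 14 members were called higher (6.42%; background 16.1% of all genes tested and 13.4% of the 8293) and 7 lower (3.21%; background 13.5% and 10.6%). The members' median was 0.04, against 0.00 over all genes tested and 0.01 over the 8293, and it was -0.03 with median centring. The split of 14 and 7 moved to 12 and 15 with median centring and 16 and 0 with total counts. It was 51 and 1 with counts outside ribosomal transcripts. All genes tested had 15 and 15%, 19 and 6.82%, and 29.1 and 8.39% called higher and lower under these scalings. Far fewer members were called when either kidney library was left out. Fewer were called higher without FFPE brain, and fewer lower without frozen brain. More were called higher without FFPE liver, and more lower without frozen liver. The shares of all genes called in those fits are not given here.

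Zfp810 had the largest called difference upward in kidney, with 3.53 and 3.01, against 1.89 and 1.95 (brain), 0.67 and 1.96 (heart) and 1.83 and 1.69 (liver) (1.61 ± 0.36, limma adjusted p = 0.011). Kidney did not overlap the others, while the 2 heart libraries differed more from each other than from brain or liver. Zfp444 and Zfp35, given above, were higher in kidney by 1.39 ± 0.30 (adjusted p = 0.00844) and 1.33 ± 0.24 (adjusted p = 0.00393), and Zfp217 by 1.26 ± 0.27 (adjusted p = 0.0091). The Zfp217 libraries of kidney lay within the range of liver, and its contrast includes the low brain values. Lower in kidney were Zfp970 (-1.18 ± 0.23, adjusted p = 0.00509), Zfp383 (-1.07 ± 0.32, adjusted p = 0.0364), Zfp612 (-0.80 ± 0.21, adjusted p = 0.0204) and Zfp445 (-0.67 ± 0.13, adjusted p = 0.005). Zfp445, a KRAB protein that protects imprints in the embryo and whose span overlaps Zkscan7, had 5.24 and 5.10 in kidney, against 6.26 and 5.85 (brain), 5.99 and 5.69 (heart) and 5.74 and 5.53 (liver). Zfp810 was not called without FFPE kidney (adjusted p = 0.255), and none of the other 7 was called without FFPE kidney (0.072 to 0.296) or without frozen kidney (0.0506 to 0.285). Zfp383 was also lost without FFPE brain, frozen brain or FFPE heart (differences of -1.13, -1.02 and -0.96) and Zfp612 without frozen brain (-0.79). With total counts all 4 lower calls were lost (limma adjusted p from 0.333 to 0.802). With counts outside ribosomal transcripts Zfp383, Zfp612 and Zfp445 were lost (0.164, 0.192 and 0.276). Zfp612 and Zfp445 were lost without a variance trend (0.0651 and 0.0619), and Zfp383 without both heart libraries (0.0874).

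In liver, 14 members were called higher (6.42%; background 20.1% of all genes tested and 20.7% of the 8293) and 42 lower (19.3%; background 27.2% and 22.3%). The members' median was -0.24, against -0.18 over all genes tested and -0.02 over the 8293. The split of 14 and 42 moved to 18 and 32 with median centring and 0 and 162 with total counts. It was 1 and 158 with counts outside ribosomal transcripts. All genes tested had 24 and 23.2%, 7.69 and 58%, and 11 and 53.9% called higher and lower under these scalings. Whether the members' share called lower lay below or above the background thus depended on the scaling. Fewer members were called higher when FFPE liver, FFPE brain, FFPE kidney or frozen kidney was left out. Fewer were called lower without frozen liver. The shares of all genes called in those fits are not given here.

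Zfp462 had the largest difference of all members, lower in liver by -3.31 ± 0.24 (limma adjusted p = 1.35e-05), with the values given above. Zfp821 had 0.42 and 0.32 in liver, against 2.76 and 2.54 (brain), 1.57 and 1.23 (heart) and 2.35 and 2.44 (kidney) (-1.78 ± 0.29, adjusted p = 0.00106). Zfp46, also the heart-high gene above, was lower in liver by -1.73 ± 0.21 (adjusted p = 2.07e-04), and heart, brain, kidney and liver stood in that order in both preservations. Zfp608, which represses the Rag genes in thymocytes, had 1.69 and 2.57 in liver and 3.69 to 4.00 elsewhere (-1.72 ± 0.24, adjusted p = 4.37e-04). For each of the 4, both liver libraries lay below the other 6.

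Higher in liver were Zfp970, Zfp395, Zfp874a and Zfp809. Zfp970, lowest in brain, differed by 1.91 ± 0.23 (limma adjusted p = 1.82e-04). Zfp395 had 4.36 and 3.0 in liver, against 2.15 and 1.35 (brain), 2.81 and 1.87 (heart) and 2.49 and 2.39 (kidney) (1.51 ± 0.28, adjusted p = 0.00219). Zfp874a had 2.75 and 2.33 in liver, against 1.26 and 1.42 (brain), 0.67 and 0.98 (heart) and 1.51 and 1.58 (kidney) (1.30 ± 0.31, adjusted p = 0.00852). Its span overlaps Zfp459, it has the similar copy Zfp874b, and the sources used here do not say how reads matching both copies were counted. Zfp809, which silences murine leukemia proviruses and whose span overlaps Zfp599, had 4.14 and 3.95 in liver, against 1.37 and 2.38 (brain), 3.19 and 3.56 (heart) and 3.33 and 3.08 (kidney) (1.22 ± 0.27, adjusted p = 0.00562). With total counts none of these 4 calls held (adjusted p from 0.179 to 0.97), and with counts outside ribosomal transcripts Zfp395, Zfp874a and Zfp809 were not called (0.0524, 0.165 and 0.119). Without FFPE liver Zfp874a and Zfp809 were not called (adjusted p = 0.103 and 0.0843).

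**Figure D3:**
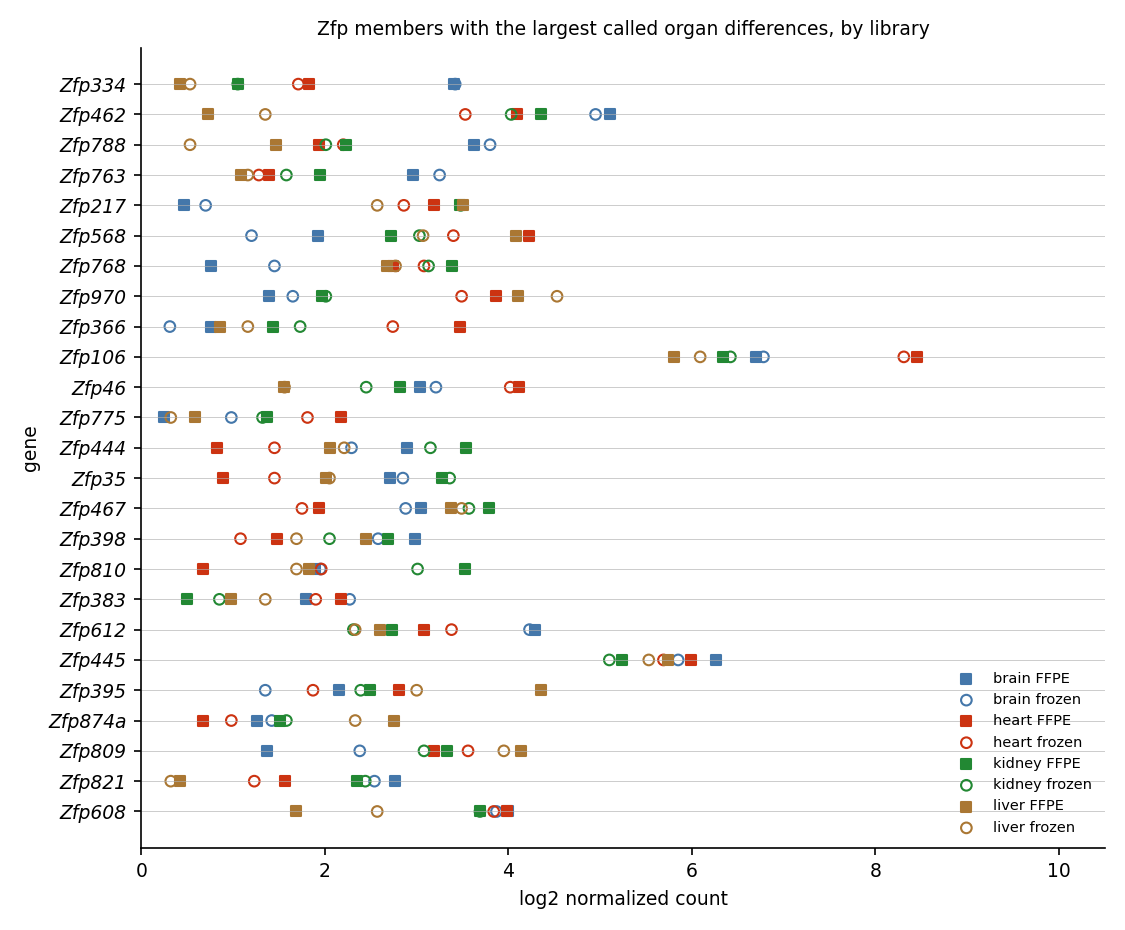
Level (log2 normalized count) of each Zfp member named for an organ difference, 1 row per gene, with filled squares for FFPE and open circles for frozen libraries and a colour per organ. Zfp106 stands alone in heart at 8.45 and 8.31, Zfp334 has both brain libraries at 3.41 and 3.42 to the right of all others, and the liver libraries of Zfp462 lie at 0.73 and 1.35.

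The 173 Zfp genes that missed the rule show what the rule leaves out. Of these, 120 passed the filter of the fit. In brain 52 (43.3%) were called higher and 8 (6.67%) lower, where the background was 30.2% and 26.4% of all genes tested. Their median difference was log2 1.07. In liver 4 (3.33%) were called higher and 39 (32.5%) lower, where the background was 20.1% and 27.2%. The median there was -0.64. A gene above 0 in only 2 libraries could pass the filter through a single organ, which favours calls higher in that organ. These counts therefore carry no test. Each of these genes was at or below 0 in some library by the rule, so large differences were bound to be more frequent among them than among the members. Counted over single libraries, 317 and 324 Zfp genes were above 0 in brain, 295 and 296 in kidney, 273 and 275 in liver and 272 and 312 in heart.

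The corepressor genes through which KRAB zinc finger proteins act, a list of 20 genes, were set beside the members. Of the 20, 18 were tested, while Atf7ip2 and Uhrf1 were below log2 0 in every library and were not. In brain 6 (33.3%) were called higher and 0 lower at limma adjusted p under 0.05. The background was 30.2% and 26.4% of all genes tested and 24.6% and 23.9% of the 8293. The list's median was 0.44, against 0.07 over all genes tested and 0.03 over the 8293. With 18 genes, the 6 called higher were a share near the wider background and above the closer one. They were Cbx5, which encodes heterochromatin protein HP1 alpha (1.38 ± 0.14, adjusted p = 7.03e-05), the maintenance methyltransferase gene Dnmt1 (1.04 ± 0.19, adjusted p = 0.00188), the NuRD remodeler gene Chd3 (0.99 ± 0.16), the HP1 gamma gene Cbx3 (0.83 ± 0.24), the HUSH subunit gene Mphosph8 (0.75 ± 0.25) and the deacetylase gene Hdac2 (0.67 ± 0.20). In liver 1 of the 18 was called higher and 4 lower (5.56% and 22.2%). The background there was 20.1% and 27.2% of all genes tested and 20.7% and 22.3% of the 8293. Morc3 was higher (0.61 ± 0.19) and Cbx5, Hdac2, Dnmt1 and Atf7ip were lower (-1.43, -0.86, -0.72 and -0.65). In heart Atf7ip was higher (0.71 ± 0.15) and Chd3 lower (-2.62 ± 0.16, adjusted p = 1.06e-05), and in kidney Chd3 was higher (1.25 ± 0.16). Each of these was 5.56% of the list. The background was 15.9% higher and 18.1% lower in heart and 16.1% higher in kidney, of all genes tested. Calls for Cbx5, Chd3 and Dnmt1 in brain held under the authors' scaling and 4 others. The list's counts in brain were 4 higher and 0 lower with quantile normalization, 3 and 2 with median centring, 15 and 0 with total counts and 13 and 0 with counts outside ribosomal transcripts. Its counts in liver were 1 and 6, 2 and 4, 0 and 14, and 0 and 15 under the same scalings. Without frozen brain, FFPE brain or frozen kidney the number higher in brain was 3, 4 and 4, and without frozen liver the counts there were 0 and 2. The calls of Chd3 in kidney and brain were lost without both heart libraries, and the heart call of Atf7ip was lost without FFPE heart, with total counts and without a variance trend. Without a variance trend the counts in liver were 0 and 2, with Morc3, Atf7ip and Dnmt1 not called. Trim28 itself, with 3.07 to 3.59 in the FFPE libraries and 2.54 to 3.34 in the frozen ones, was called in no organ under the authors' scaling. Setdb1, between 3.16 and 4.04 in all libraries, was called in none either. With total counts and with counts outside ribosomal transcripts both were called higher in brain and lower in liver. Under these 2 scalings 55.4 and 43.7% of all genes tested were called higher in brain, and 58 and 53.9% lower in liver. Of other zinc finger families, 39 Zbtb genes were tested with 7 higher and 6 lower in brain (17.9% and 15.4%), 21 Zscan and Zkscan genes with 4 and 4 (19% each), and 13 Klf genes with 3 and 6 (23.1% and 46.2%), beside the same background of 30.2% and 26.4%.

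Members were spread over 20 chromosomes, with 47 on chromosome 7, 29 on chromosome 17, 19 on chromosome 13 and 18 on chromosome 8. With gaps of at most 500000 bases, 106 members fell into 19 groups of 3 or more neighbours. Their brain difference had a median of 0.38, with 24 called higher and 8 lower. The 112 members in pairs or alone had 0.32, with 34 and 9. The background was 30.2% higher and 26.4% lower of all genes tested, and 24.6% and 23.9% of the 8293. Groups are described here and were not tested. Most groups of 5 or more held values of both signs. The 11 members on chromosome 17 between 32765496 and 33394637, among them Zfp763, Zfp955a and Zfp955b, had a brain median of 0.64 with every value above 0 (0.06 to 1.7) and 4 called higher. The 5 members on chromosome 7 between 24081877 and 24277794 (Zfp180, Zfp235, Zfp111, Zfp109 and Zfp93) lay between 0.61 and 1.19, with 2 called higher. The 8 members further along chromosome 7, between 29768552 and 30169775, held 3 called higher but also Zfp568 at -1.86. Among the 15 members at 21008941 to 23564226 on chromosome 17, 1 was higher and 1 lower. Neighbours in such clusters can be similar copies that share reads, and 73 members' spans overlap another annotated gene, whose reads cannot be told apart from theirs where strand was not used, and whether it was used is not stated.

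**Figure D4:**
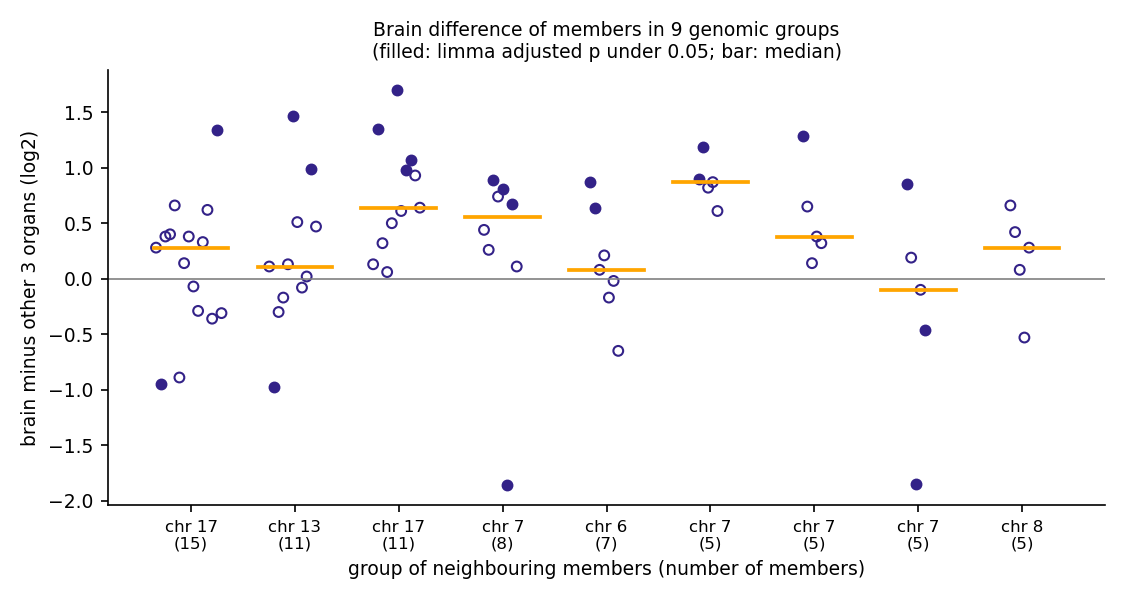
Brain minus the mean of the other 3 organs (log2) for the members of the 9 genomic groups of 5 or more neighbours, with filled points for limma adjusted p under 0.05 and an orange bar at each group's median. The groups with medians of 0.87 and 0.38 (5 members each, chromosome 7) and 0.64 (11 members, chromosome 17) lie wholly above 0, and the other groups hold values on both sides.

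FFPE was compared with frozen tissue over the 4 organs as blocks. With limma, 0 members were called higher in FFPE (background 0.00673% of all genes tested) and 0 lower (background 0%). At an unadjusted p under 0.05, 23 members (10.6%) were higher and 4 (1.83%) lower, against 8.77% and 9.86% of all genes tested and 13.1% and 7.87% of the 8293. The members' share higher thus lay between the backgrounds, and their share lower was below both. FFPE was above frozen in 4 of 4 organs for 45 members, or 20.6%, where the background was 13.7% of all genes tested and 19.3% of the 8293, and below in 4 of 4 for 21 members, or 9.63%, where it was 13.7% and 12.7%. The members' median was 0.08, against -0.07 over all genes tested and 0.05 over the 8293. It was -0.03 with total counts and -0.07 with counts outside ribosomal transcripts. It lay above the median of all genes tested by 0.15 under the authors' scaling and by 0.05 with quantile normalization. The other scalings shift every gene of a library alike, so they cannot change this gap.

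Zfp236 differed by a like amount in the 4 organs. In the FFPE organs it lay at 4.67 (brain), 4.62 (heart), 4.50 (kidney) and 4.74 (liver), against 4.10, 3.71, 3.71 and 3.90 in the same organs frozen. No FFPE library overlapped a frozen one, and the difference was log2 0.78 ± 0.13 (limma adjusted p = 0.0645). It passed when only genes above 0 in all libraries were tested, with library quality weights, with voom weights and with 2 counts added (adjusted p from 0.0174 to 0.0464). Zfp740, whose span overlaps Csad, had 3.96, 3.84, 4.33 and 3.93 in FFPE tissue, against 3.53, 3.23, 3.47 and 3.04 in frozen tissue, a difference of 0.70 ± 0.15 (adjusted p = 0.0981), and passed with voom weights and with only genes above 0 in all libraries (adjusted p = 0.0387 and 0.0432). Zfp395 had the largest difference, 0.80 ± 0.24 (adjusted p = 0.164), but only 0.10 in kidney against 1.36 in liver. Zfp324 (0.72 ± 0.25) and Zfp516, an activator of Ucp1 in brown fat (0.71 ± 0.22), did not pass either (adjusted p = 0.197 and 0.168). Below frozen in 4 of 4 organs, and not called, were Zfp874b (-0.69 ± 0.29), Zfp277 (-0.64 ± 0.28), Zfp189 (-0.62 ± 0.21), Zfp637 (-0.55 ± 0.26) and Zfp867 (-0.55 ± 0.32), with adjusted p from 0.195 to 0.38.

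Within single organs, FFPE minus frozen is a difference of 1 library from another, with no test and with 95% intervals that cover counting error only. The members' median difference was 0.29 in liver, 0.13 in kidney, 0.06 in heart and -0.04 in brain, against 0.07, 0.07, 0.15 and -0.08 for the 8293 genes. In liver 153 of 218 members (70.2%) were higher in FFPE, against 55.1% of the 8293. There 56 members (25.7%) had an interval above 0 and 10 (4.59%) one below, where the background was 23.6% and 15.9% of the 8293. In kidney 49 (22.5%) lay above 0 and 7 (3.21%) below, where it was 27.6% and 16.1%. In heart 40 (18.3%) lay above and 25 (11.5%) below, against 29.7% and 12.9%, and in brain 41 (18.8%) and 44 (20.2%), against 22.4% and 32.6%. The members' shares were below the background except for the intervals above 0 in liver, and the part of their lower levels in this was not tested. Intervals on opposite sides of 0 in different organs were found for 25 members (11.5%), against 17.3% of the 8293, and an interval below 0 in brain with one above 0 in liver for 9 (4.13%), against 4.47%. The members' medians turned with the scaling: with total counts liver was -0.37, kidney -0.50, heart 0.41 and brain 0.45, and with counts outside ribosomal transcripts liver was 0.02, kidney -0.17, heart -0.06 and brain 0.03. Liver is also where members had the fewest counts.

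**Figure D5:**
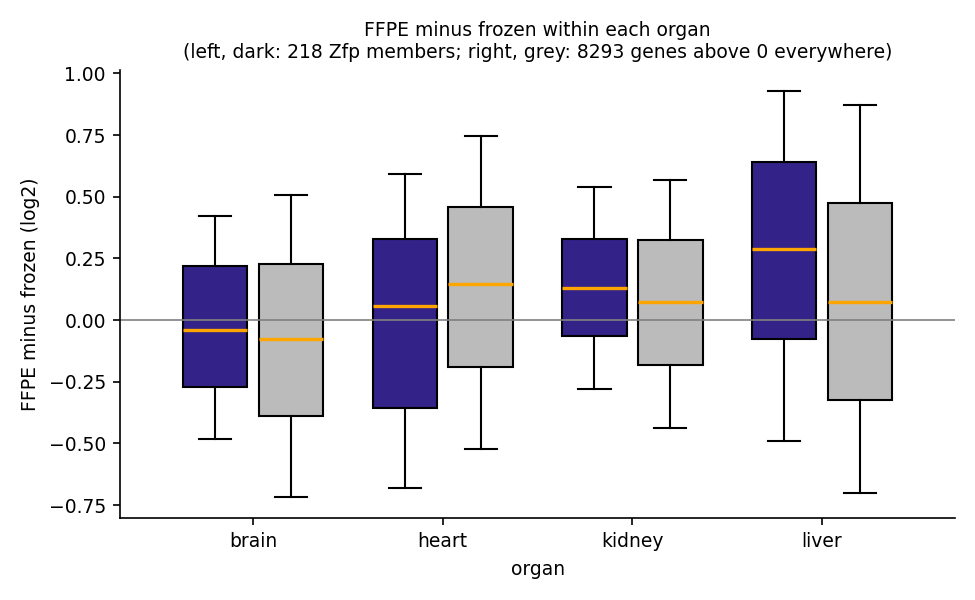
FFPE minus frozen (log2) within each organ for the 218 members (left box of each pair, dark) and the 8293 genes above 0 in all libraries (right box, grey), with boxes over the quartiles, whiskers to the outer deciles and an orange bar at the median. The members' median is highest in liver at 0.29, against 0.07 for the grey box, and lowest in brain at -0.04.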

How the data were processed

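RNA pulled down with an m6A antibody was sequenced from FFPE and frozen brain, heart, kidney and liver. The authors deposited log2 normalized counts per gene, 1 column per organ and preservation. Per the submitters' processing notes HISAT2, featureCounts and limma were used with mm10; versions, settings and whether a column holds 1 run or both are not given in the sources used here. From the values, each is log2 CPM, computed from the count plus 0.5 over a library size scaled per column, and 100.0% of values turned back into whole counts within 0.001 (relative to 10000 counts for larger ones). Another table's 8 columns fit no listed sample and were left out.

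The members, lists and tests were chosen with earlier results of these data known. A limma fit (3.58.1, R 4.3.3) with additive organ and preservation terms over 8 libraries, eBayes with trend and 3 residual degrees of freedom, covered 14864 genes above log2 0 in at least 2 libraries, with Benjamini-Hochberg adjustment over all of them and calls under 0.05. Named members are the 4 called higher and the 4 called lower with the largest difference per organ and the same sign in both preservations, the 5 largest FFPE differences each way with 1 sign in 4 organs, the 4 with the smallest range, and the 3 on each side of the threshold. Ranking by level per exon length and protein features were planned and not done, since neither lengths nor proteins were used here. Gene positions came from RefSeq genes of GRCm38.p6, matched for 218 members by gene ID. The fit was also run on simulated data, where changed genes were drawn only from genes of higher mean level. That run therefore says nothing of members at low levels. Alternatives were other scalings, filters, weights, an added count of 2, no trend, and leaving out libraries. Within-organ intervals are exact binomial at 95%, and cover counting error only. Python 3.11.15 with pandas 2.3.3, scipy 1.17.1 and matplotlib 3.10.9 was used.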

Additional observations from a re-analysis of the deposited data

Results flagged for a closer look

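For 3 of the named members the difference between FFPE and frozen tissue ran in opposite directions in different organs, with 95% counting intervals on opposite sides of 0. Each rests on 1 library per organ and preservation, and the difference between organs was not tested. Zfp106 was higher in FFPE heart than in frozen heart by log2 0.14 and lower in FFPE brain by -0.08 and in FFPE liver by -0.29. Zfp810 was higher in FFPE kidney by 0.52 and lower in FFPE heart by -1.29, where FFPE heart held 18 counts, against 50 in frozen heart. Zfp970 was higher in FFPE heart by 0.39 and lower in FFPE liver by -0.43. Over all members, 25 (11.5%) had such intervals, below the background of 17.3% of the 8293 genes above 0 in all libraries. Of the members, 9 (4.13%) were lower in FFPE brain and higher in FFPE liver, near the background of 4.47%.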

How the results depend on the processing

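No paired analysis was possible because the columns carry no run number; organ, as a block, pairs FFPE with frozen libraries in the FFPE comparison. The number of members stayed within 1.5 times of 218 under other thresholds and scalings (152 to 291). Of 32 named organ differences, 12 kept their call under each alternative, 20 lost it under at least 1 and 0 reversed; of 10 FFPE differences 8 stayed uncalled. The causes were not tested. Shares over all genes tested moved with the scaling too, as given with each organ above. Counts of members called higher / lower per organ that moved were as follows. With total counts brain had 170 higher and 1 lower, heart 2 higher, kidney 0 lower, liver 0 higher and 162 lower. With counts outside ribosomal transcripts brain had 134 and 7, heart 6 and 29, kidney 51 and 1, liver 1 and 158. With quantile normalization brain had 27 lower, heart 22 higher and kidney 14 lower, and with median centring heart had 20 higher and kidney 15 lower. Of all genes tested, 18.2% were called lower in kidney with quantile normalization. Testing only genes above 0 in all libraries gave 16 higher and 30 lower in heart, 11 lower in kidney and 2 higher in FFPE. Without a trend kidney had 8 higher and 3 lower and liver 7 higher. Library quality weights gave 27 higher and 19 lower in kidney, 7 higher in liver and 1 higher in FFPE. Voom weights gave 26 higher and 12 lower in kidney and 2 higher in FFPE. With 2 counts added, kidney had 12 lower and FFPE 1 higher. For the filter, trend, weight and added-count settings, and for libraries left out, the shares of all genes called are not given here. A change in the members' counts under these settings therefore cannot be told apart from a change over all genes. With 1 library left out at a time, members higher numbered 19 to 70 in brain, 3 to 13 in heart, 1 to 22 in kidney, 5 to 12 in liver and 0 to 0 in FFPE, and members lower 8 to 20, 4 to 23, 0 to 11, 23 to 40 and 0 to 0. With total counts the median FFPE difference was 0.45 within brain and -0.50 within kidney. Depth limits liver most, where the median member had 30 and 41 counts.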

Other observations

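The following members were picked after their values were seen. The 3 members of the Zfp280 family moved together in brain: Zfp280b was higher by log2 1.09 ± 0.30, Zfp280c by 1.23 ± 0.30 and Zfp280d by 0.70 ± 0.17 (limma adjusted p = 0.0125, 0.00748 and 0.00822). The neighbouring copies Zfp955a and Zfp955b, which can share reads, were higher in brain by 0.98 ± 0.23 and 1.07 ± 0.24 (adjusted p = 0.00601 and 0.00516). The copies Zfp874a and Zfp874b did not follow each other: Zfp874a had 2.75 and 2.33 in FFPE and frozen liver, against 0.67 to 1.58 elsewhere, while Zfp874b had 0.86 and 1.40 in liver and 0.60 to 1.93 elsewhere.

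Values of 5 other members follow, 3 called in an organ and 2 in none. Zfp598, the ubiquitin ligase that marks collided ribosomes, had 4.36 and 4.09 in FFPE and frozen liver, against 3.36 and 3.0 (brain), 2.70 and 2.65 (heart) and 3.64 and 2.99 (kidney). It was higher in liver by log2 1.17 ± 0.19 and lower in heart by -0.90 ± 0.19 (limma adjusted p = 0.0011 and 0.00685). Zfp346, a double-stranded RNA binding protein, was higher in heart by 0.93 ± 0.27 (adjusted p = 0.0288), with 2.89 and 2.36 there, against 1.34 to 2.31 elsewhere, so the heart libraries lay above all others. Zfp638, whose human counterpart silences unintegrated retroviral DNA with the HUSH complex, was higher in brain by 0.85 ± 0.16 and lower in liver by -0.71 ± 0.16 (adjusted p = 0.00188 and 0.00595). Zfp622, which acts in maturation of the large ribosomal subunit, ranged by 0.82 over the 8 libraries, and Zfp207, a spindle assembly factor, by 0.81, and neither was called in any organ.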
